A study of Mus musculus with 2 samples.

Results

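The SLAM family of surface receptors, its adaptor SAP and the kinase that SAP recruits were examined across liver immune cells of a mouse model of primary biliary cholangitis. The 8 genes were chosen by name from the 13528 genes of the filtered count table. They were the receptor genes Slamf1, Slamf6, Slamf7, Cd48, Cd84 and Ly9, the adaptor gene Sh2d1a, which encodes SAP, and the kinase gene Fyn. All 8 were in the table, and each had a transcript in at least 410 TG cells and 443 WT cells.

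SLAM receptors are immunoglobulin-like molecules of hematopoietic cells, and most of them bind the same receptor on a neighboring cell, whereas CD48 is held in the membrane by a lipid anchor and is a ligand of CD244 and CD2. The tails of most of these receptors carry tyrosine-based switch motifs. SAP binds these motifs and brings in FYN, and where SAP is lacking the same motifs can recruit inhibitory phosphatases. SAP is required for the development of NKT cells and for lasting contact of helper T cells with B cells, and in NK cells SAP and the related adaptor EAT-2 shape killing of blood cell targets.

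CD45+ cells were sorted from livers of dnTGFβRII (TG) mice, which express a dominant-negative human TGF-β receptor II, and of wild type (WT) mice. Both are on the C57BL/6 strain and are given as 10 weeks old in the sample labels, while the methods of the study give a somewhat younger age. The transgene is driven by the mouse CD4 promoter, so that it acts in T cells. TG cells were captured in 1 library together with cells of IFN-γ ARE-Del-/- mice, and WT cells in another together with cells of P40-/-IL-2Ra-/- mice, with sample tags to tell the genotypes apart. The number of mice is not given in the sources used here. With 1 library per genotype no test between TG and WT was possible, and an effect of the genotype and an effect of the capture library cannot be told apart.

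The analyzed cells were 4647 from TG and 7282 from WT, with 18498477 and 22216379 unique molecular identifiers (UMIs), each UMI standing for 1 captured transcript. TG cells were deeper, with a median of 3298 UMIs against 2654 in WT, which raises the share of cells with a transcript. Of the cell indices, 267 occurred in both library files and 36 were named in both genotypes. Levels are given as CPM, the UMIs of a gene per 1000000 UMIs of the summed cell type. Ratios of TG over WT are on the log2 scale with a 95% interval, which covers counting error only and not the variation between mice. A gene was called where the ratio was at least 1.5-fold in either direction with at least 10 UMIs over both genotypes. The share of all genes called in the same way is given beside each count of the 8 genes, and it served as the background.

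The annotated names were checked against marker genes before the levels were read. Cells named CD4 T, CD8αβ T, NKT, mature B, plasmacytoid dendritic (pDC) and basophil carried their markers, although mature B cells held T cell markers, with sums of 3234 CPM in TG and 4009 in WT in their cluster 17. Cells named NKT held Cd4 as well, at 633.8 CPM in TG and 162 in WT. Among T cells, Cd4 was also higher in TG in those named CD4 T (815.6 and 519.8 CPM), CD8αβ T (186 and 92 CPM) and CD8αα T (113 and 10.9 CPM). Cells named NK were a mixture by genotype. Cd3e, a subunit of the T cell receptor complex, was at 1158 CPM in TG and 97.8 in WT cells of that name, and Ncr1, an NK cell receptor, at 561 and 969 CPM. The T cell markers summed to 4071 CPM there in TG and 1617 CPM in WT. Cells named monocytes held 52052 CPM of summed neutrophil markers in TG and 32140 CPM in WT, against 458 and 337 CPM of the monocyte markers Ly6c2 and Ccr2. In cells named macrophages, C1qa was listed at 0 in TG and was at 247 CPM in WT. The macrophage markers, C1qa among them, summed to 670 CPM in TG and 784 in WT there. These cells also held Ly6c2 and Ccr2 at a sum of 1340 and 1091 CPM and pDC markers at 1235 and 1321 CPM. Cells named immature B had less of Vpreb3 than mature B cells in both genotypes. Transcripts of other cells also differed by genotype within a name. The erythroid markers summed to 0.755 CPM in TG and 2964 in WT in the cells annotated as CD8αα T, to 1.31 and 1067 CPM in cells named NK and to 0.377 and 115 CPM in CD8αβ T cells. Plasma cell markers in cluster 7 of the CD8αβ T cells summed to 122 and 1102 CPM. The part of these transcripts in the ratios was not tested. These names were therefore used as labels, and cells named NK were also read by cluster. The cell type annotated as CD8αα T is a single cluster, cluster 2, and is called by that number. Its Trdc, the constant region of the δ receptor chain, was at 95.1 CPM in TG and 854.5 in WT.

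Most receptor genes lie side by side. In the GRCm38 build, 6 of the 8 genes are on chromosome 1 within 364547 bases, at positions 171588624 to 171953170, where 7 protein-coding genes lie wholly inside. Cd244a, at 171559193 to 171609746, reaches over the low end of this block and is not among the 7. From low to high coordinate, the start and end of each gene were 171588624 and 171607410 for Ly9, 171632403 and 171653035 for Slamf7, and 171682009 and 171705258 for Cd48. They were 171767127 and 171801184 for Slamf1, 171839697 and 171890718 for Cd84, and 171917515 and 171953170 for Slamf6. Ly9 and Slamf7 are on the minus strand and the other genes of the block on the plus strand. Ly9 lies wholly within the span of Cd244a, which is on the opposite strand, and the strand setting of the counting is not given in the sources used here, so the share of Ly9 counts that could come from Cd244a is unknown. Fyn is on chromosome 10 at 39368855 to 39565381 and Sh2d1a on chromosome X at 42502453 to 42529330, both on the plus strand.

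**Figure D1:**
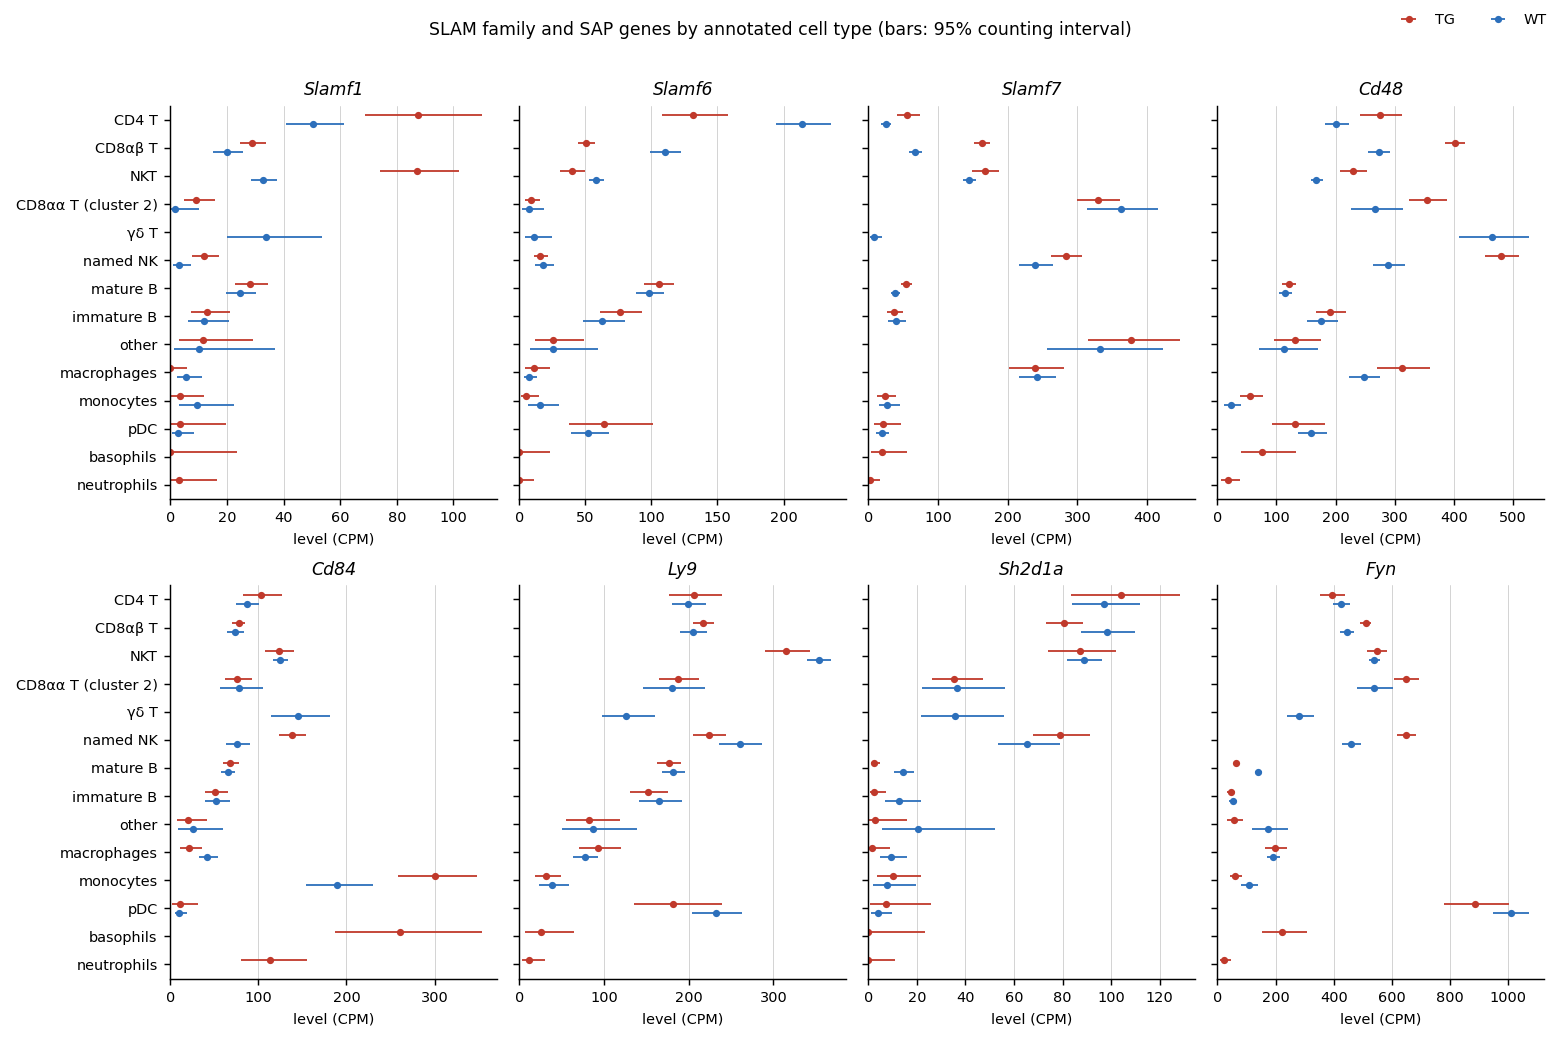
Level of each gene in CPM (horizontal axes, from 0, a separate scale per gene) by annotated cell type in TG (red) and WT (blue), with 95% counting intervals as bars. Genotypes with under 20 cells of a type are not drawn. Slamf6 was lower in TG than in WT CD4 T, CD8αβ T and NKT cells, Slamf7 was higher in TG CD4 and CD8αβ T cells, and Slamf1 was higher in TG NKT cells.

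Slamf6 and Slamf7 differed in opposite directions in CD8αβ T cells. Slamf6, a self-binding receptor of T and B cells that signals through SAP, was at 50.5 CPM in TG and 110 in WT CD8αβ T cells. Slamf7, a self-binding receptor of killer cells and plasma cells that in NK cells signals through EAT-2 and not through SAP, was at 163 and 66.9 CPM. Slamf6 was thus 2.18-fold higher in WT, with a log2 ratio of TG over WT of -1.13 (interval -1.36 to -0.89), and Slamf7 was 2.44-fold higher in TG, with a log2 ratio of 1.28 (1.06 to 1.51). These were the called genes among the 8 in CD8αβ T cells, 1 in each direction, beside 22.4% of all genes.

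The CD8αβ T cells were spread over clusters in different proportions in each genotype. Cluster 4, in which Slamf6 was high and Slamf7 low, held 145 of 1020 TG cells and 363 of 819 WT cells. Within this cluster Slamf6 was at 90.0 CPM in TG and 129 in WT (-0.52, -0.97 to -0.08), a smaller ratio than that of the whole cell type. In cluster 7 the levels were 42.6 and 112 CPM (-1.39, -1.80 to -0.99). In cluster 12 they were 20.4 and 109 CPM (-2.42, -3.46 to -1.43), although 45.8% of the 24 WT UMIs came from 3 cells. Cluster 18 had 26.7 and 112 CPM (-2.07, -3.44 to -0.68), and in cluster 13 the interval included 0 (-0.54, -1.08 to 0.02). By point ratio Slamf6 was therefore lower in TG in each of the 5 clusters with at least 20 cells in both genotypes. With equal weight for these clusters the log2 ratio was -1.17. Cluster 23, with 76 WT cells and too few TG cells to compare, had 49 CPM in WT.

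Equal weight per cluster changed the ratio of Slamf7 more than that of Slamf6. Cluster 7 had 192 CPM in TG and 120 in WT (0.67, 0.37 to 0.98), and cluster 12 had 298 and 155 CPM (0.95, 0.42 to 1.51). The levels were 16.6 and 7.63 CPM in cluster 4, 48.5 and 26.9 CPM in cluster 13 and 287 and 224 CPM in cluster 18. Point ratios were above 0 in these 5 clusters, but the intervals of clusters 4, 13 and 18 included 0. With equal weight for these 5 clusters the log2 ratio was 0.66, against 1.28 for the cell type as a whole, which also includes cluster 23 with 76 WT cells. The summed level of the 4 NK cell markers (Ncr1, Klrb1c, Eomes and Tbx21) was also higher in TG in most of these clusters. It was 547 CPM in TG and 274 in WT CD8αβ T cells, 751 and 342 CPM in cluster 7 and 628 and 332 CPM in cluster 12. These are sums, and the single markers are not given here. The sums were also higher in TG in clusters 4 (197 and 63.9 CPM) and 13 (377 and 275 CPM), but lower in cluster 18 (182 and 550.1 CPM). Their part in the difference of Slamf7 was not tested.

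**Figure D2:**
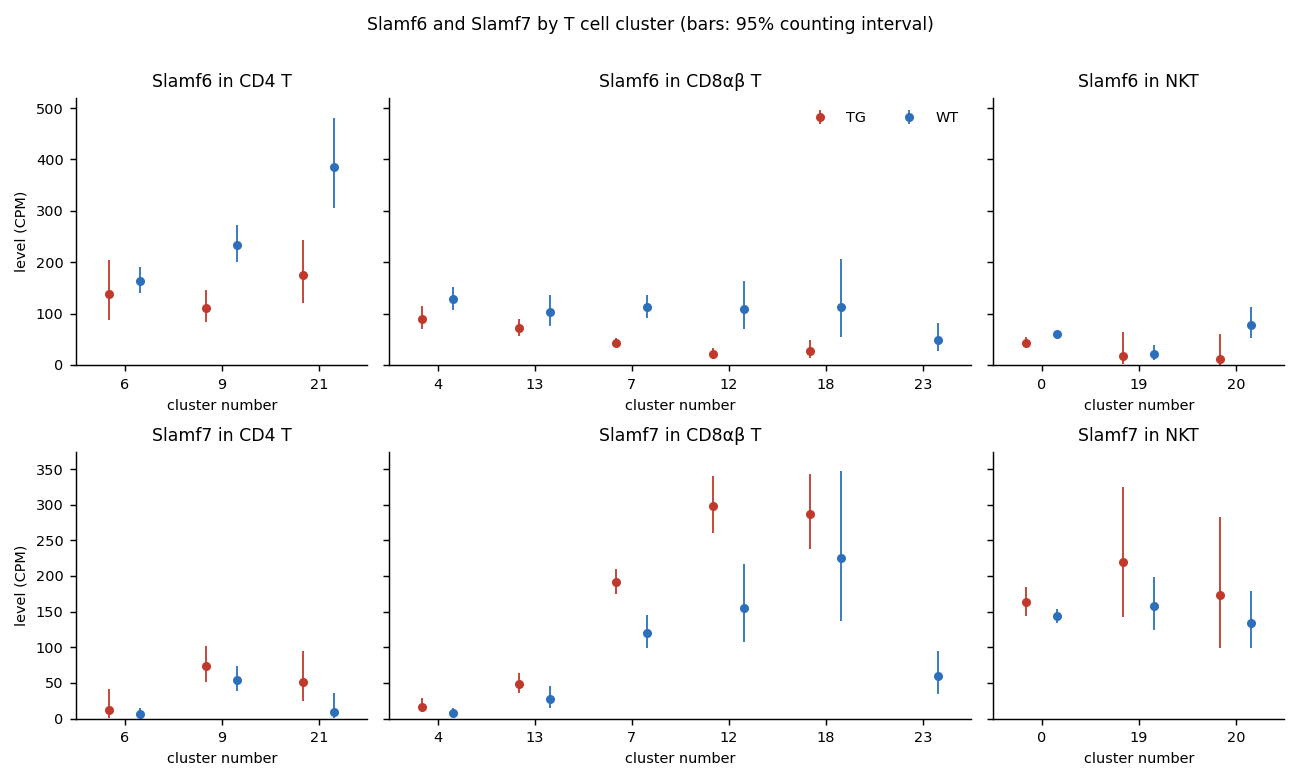
Level of Slamf6 (top) and Slamf7 (bottom) in CPM (vertical axes, from 0) by cluster of CD4 T, CD8αβ T and NKT cells in TG (red) and WT (blue), with 95% counting intervals. TG points with under 20 cells (cluster 23) are not drawn. In CD8αβ T cells Slamf6 was between 20.4 and 90.0 CPM in TG, while WT ranged from 103 to 129 CPM in the clusters shown for both genotypes. WT cluster 23 had 49 CPM.

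Among the 8 genes, 1 of each direction was called in cluster 7, Slamf7 and Slamf6, beside 25.2% of all genes. In cluster 12, 2 were higher in TG (Slamf7 and Cd48) and 2 lower (Slamf6 and Sh2d1a), beside 35.8% of all genes in this smaller set of cells.

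Transcripts of both receptors were also counted cell by cell in CD8αβ T cells. A Slamf6 UMI without a Slamf7 UMI was found in 12.45% of TG cells and 22.8% of WT cells, and the reverse in 34.5% and 10.6%. UMIs of both were found in 6.76% and 4.03%. Each receptor had few UMIs per cell, so a small share with both does not show that the receptors were on separate cells. In cluster 7, 9.09% of TG cells and 28.0% of WT cells held Slamf6 alone, while 47.0% and 28.0% held Slamf7 alone and 13.2% and 11.4% held both. In cluster 12, Slamf7 alone was found in 45.8% of TG and 26.0% of WT cells, and both in 2.01% and 9.59%.

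**Figure D3:**
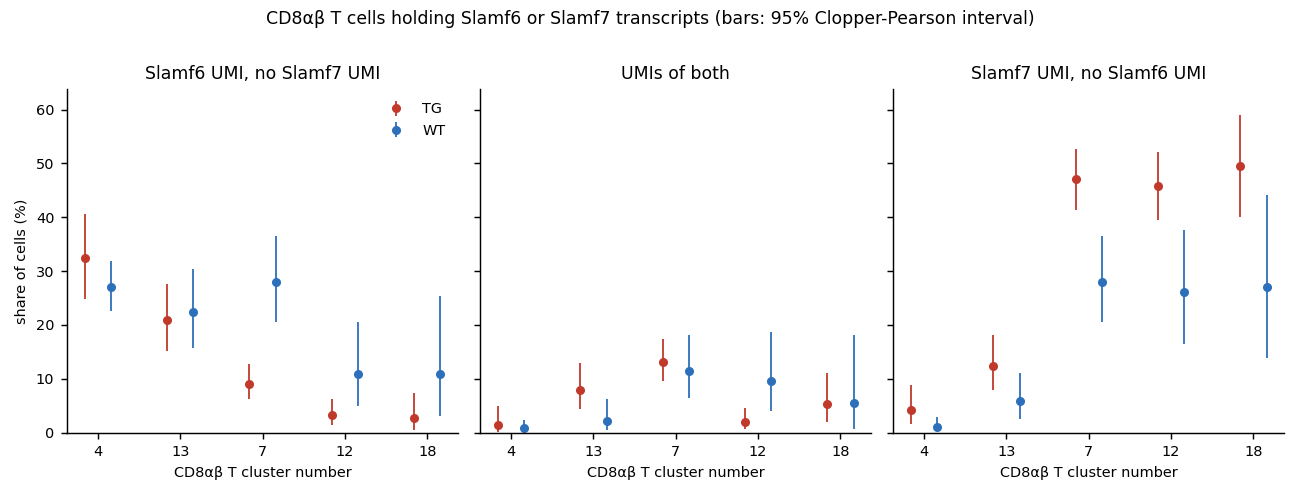
Share of CD8αβ T cells (vertical axes, percent, from 0) with a Slamf6 UMI only, UMIs of both or a Slamf7 UMI only, by cluster in TG (red) and WT (blue), with 95% Clopper-Pearson intervals. In clusters 7, 12 and 18 Slamf7 alone was found in 45.8% to 49.6% of TG cells and in 26.0% to 28.0% of WT cells.

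These shares depend on depth, and the medians were 4557 UMIs in TG and 2996 in WT CD8αβ T cells. A Slamf7 UMI was found in 41.3% of TG and 14.7% of WT CD8αβ T cells, and in 15.0% and 5.13% after each cell was thinned to 1000 UMIs. A Slamf6 UMI was found in 19.2% and 26.9%, and in 5.20% and 11.1% after thinning. As background, cells named monocytes held a Slamf6 UMI in 0.980% of TG and 2.33% of WT cells, at median depths of 2614 and 1770 UMIs. A Slamf7 UMI was found in 3.92% and 4.26% of them and in 2.08% of WT γδ T cells, at a median of 2406 UMIs. Both shares in CD8αβ T cells were above these levels, and thinning kept the direction of both. Immature B cells, at medians of 5965 and 4426 UMIs, held a Slamf7 UMI in 15.5% of TG and 15.35% of WT cells. That is above the WT share of CD8αβ T cells. After thinning the shares of immature B cells were 2.07% and 4.95%.

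In CD4 T cells Slamf6 was again lower in TG, at 131 CPM against 214 CPM in WT (-0.71, -1.02 to -0.40). CD4 T cells had the highest Slamf6 level of all cell types in both genotypes, although in TG the interval of the ratio to mature B cells included 0. Cluster 6 held 137.6 and 164 CPM, and its interval included 0 (-0.25, -0.94 to 0.37). In cluster 9 Slamf6 was at 112 CPM in TG and 234 in WT (-1.07, -1.54 to -0.62). In cluster 21, which carried Foxp3, the transcription factor of regulatory T cells, at 923 CPM in TG and 953 in WT, Slamf6 was at 174 and 386 CPM (-1.15, -1.77 to -0.55). Cluster 6 held 397 of 734 WT CD4 T cells but 58 of 238 TG cells, and its interval overlapped those of clusters 9 and 21. With equal weight per cluster the log2 ratio was -0.89.

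NKT cells had less Slamf6 than CD4 T cells, at 39.7 CPM in TG and 58.3 in WT (-0.56, -0.94 to -0.19), which is short of 1.5-fold. This ratio was -0.17 after thinning and -1.16 with equal weight per cluster, the latter resting in part on cluster 20, where TG had 1 UMI and WT 28. Cluster 2 had 9.06 and 7.27 CPM on 12 and 4 UMIs (0.32, -1.41 to 2.41). In the summed B cells and pDC the point ratio was not below 0, although mature B cluster 17 had 49.7 CPM in TG and 74.1 in WT (-0.58, -1.78 to 0.45). Mature B cells had 105 and 98.5 CPM (0.10, -0.12 to 0.31), immature B cells 76.1 and 62.9 CPM and pDC 64.1 and 52.4 CPM. Slamf6 was past 1.5-fold in macrophages and monocytes, but on 7 and 10 UMIs and on 3 and 8 UMIs. Over the 21 clusters compared, the interval of Slamf6 lay below 0 in 9, above 0 in none and included 0 in 12.

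Slamf7 was high in killer cells, macrophages and the cells annotated as other. In TG its levels were 377 CPM in the 38 cells annotated as other, in which Jchain of plasma cells was at 24422 CPM, and 329 CPM in cluster 2. They were 283 CPM in cells named NK, 239 CPM in macrophages, 168 CPM in NKT cells and 163 CPM in CD8αβ T cells. In WT the order began with cluster 2 at 362 CPM and the cells annotated as other at 332 CPM, and the interval between these neighbors included 0 in both genotypes. WT CD8αβ T cells, at 66.9 CPM, stood below NKT cells, at 145 CPM, with an interval of that step that did not include 0. In TG the step between NKT and CD8αβ T cells included 0. Other myeloid cells held little Slamf7, with 23.4 and 26.8 CPM in cells named monocytes, 19.1 CPM in TG basophils and 2.97 CPM in TG neutrophils, and WT macrophage cluster 27 had 25.7 CPM.

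Cluster 2 and macrophages, which had high Slamf7 levels in both genotypes, had intervals that included 0, with log2 ratios of -0.14 (-0.38 to 0.11) and -0.02 (-0.31 to 0.27). NKT cells (0.21, 0.02 to 0.40) and cells named NK (0.25, 0.06 to 0.43) were slightly higher in TG. CD4 T cells had 55.6 CPM in TG and 25.2 in WT (1.14, 0.54 to 1.75), and 0.95 with equal weight per cluster. The NK cell markers in CD4 T cells summed to 135 CPM in TG and 79.6 in WT, and their part in this difference was not tested. In cluster 9 the levels were 73.6 and 53.8 CPM (0.45, -0.25 to 1.14), and in cluster 21 they were 51.3 and 9.78 CPM on 10 and 2 UMIs. Mature B cells had 53.9 and 38.4 CPM (0.49, 0.16 to 0.82). Of these, cluster 17, in which Cd3e stood at 729 and 609 CPM, had 210 and 68.6 CPM of Slamf7 (1.61, 0.96 to 2.25), and the large cluster 1 had 43.4 and 30.7 CPM. The part of T cell transcripts in this difference was not tested. Over 21 clusters, the interval of Slamf7 lay above 0 in 6, below 0 in none and included 0 in 15.

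Slamf1, the founding member of the family and a self-binding receptor of activated T cells and B cells, was highest in NKT and CD4 T cells of TG. In NKT cells it was at 87.2 CPM in TG and 32.9 in WT, 2.65-fold higher in TG (1.41, 1.10 to 1.71). Cluster 0, which held 403 of 446 TG and 1986 of 2232 WT NKT cells, had 93.6 and 32.8 CPM (1.51, 1.19 to 1.83). The ratio was 0.73 with equal weight per cluster. The small cluster 19 had 43.98 CPM in TG and 24.99 in WT (0.82), while cluster 20 ran the other way with 32.6 and 44.9 CPM (-0.46), and both intervals included 0. A Slamf1 UMI was found in 25.8% of TG and 8.51% of WT NKT cells, and in 6.73% and 3.36% after thinning to 1000 UMIs, against 0.980% and 1.94% in cells named monocytes before thinning. Other markers moved in the same cells. Cd4 was at 633.8 CPM in TG and 162 in WT cells named NKT (1.97, 1.84 to 2.09), against 815.6 and 519.8 CPM in CD4 T cells. It was also higher in TG in cells named NK (311.5 and 17.4 CPM), cluster 2 (113 and 10.9 CPM) and CD8αβ T cells (186 and 92 CPM). The NK cell markers summed to 651 and 987 CPM in cells named NKT and the NKT cell markers to 653 and 818 CPM. The part of these differences in that of Slamf1 was not tested. Slamf1 was the called gene of the 8 in NKT cells, beside 21.5% of all genes, and in cluster 0, beside 22.2%.

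In CD4 T cells the ratio of Slamf1 was smaller with equal weight per cluster. The level was 87.6 CPM in TG and 50.3 in WT (0.80, 0.34 to 1.25). In cluster 6 it was 11.5 and 13.02 CPM, in cluster 9 84.1 and 79.4 CPM and in the Foxp3 cluster 21 164 and 127 CPM. None of these 3 intervals excluded 0, and with equal weight per cluster the ratio was 0.24. Slamf1, Slamf6 and Slamf7 were the called genes in CD4 T cells, 2 higher and 1 lower in TG, beside 29.6% of all genes. In TG, CD4 T and NKT cells did not differ in Slamf1 beyond counting error (0.01, -0.41 to 0.42).

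CD8αβ T cells had 28.9 and 19.9 CPM of Slamf1 (0.54, 0.10 to 0.99). Within its clusters the intervals included 0, with ratios of -0.08 (-0.69 to 0.56) in cluster 7, 0.30 (-0.78 to 1.53) in cluster 12 and 0.49 (-1.03 to 2.47) in cluster 18. Cluster 4, with its larger share of the WT cells, had 5.54 and 3.81 CPM. Mature B cells had 28.3 and 24.5 CPM (0.21, -0.23 to 0.64). Cluster 2 held 12 UMIs in TG and 1 in WT, which made Slamf1 the called gene there, beside 26.2% of all genes, but its interval ran from -0.44 to 7.73. Over the 14 clusters with enough counts, the interval of Slamf1 lay above 0 in 2 and included 0 in 12.

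**Figure D4:**
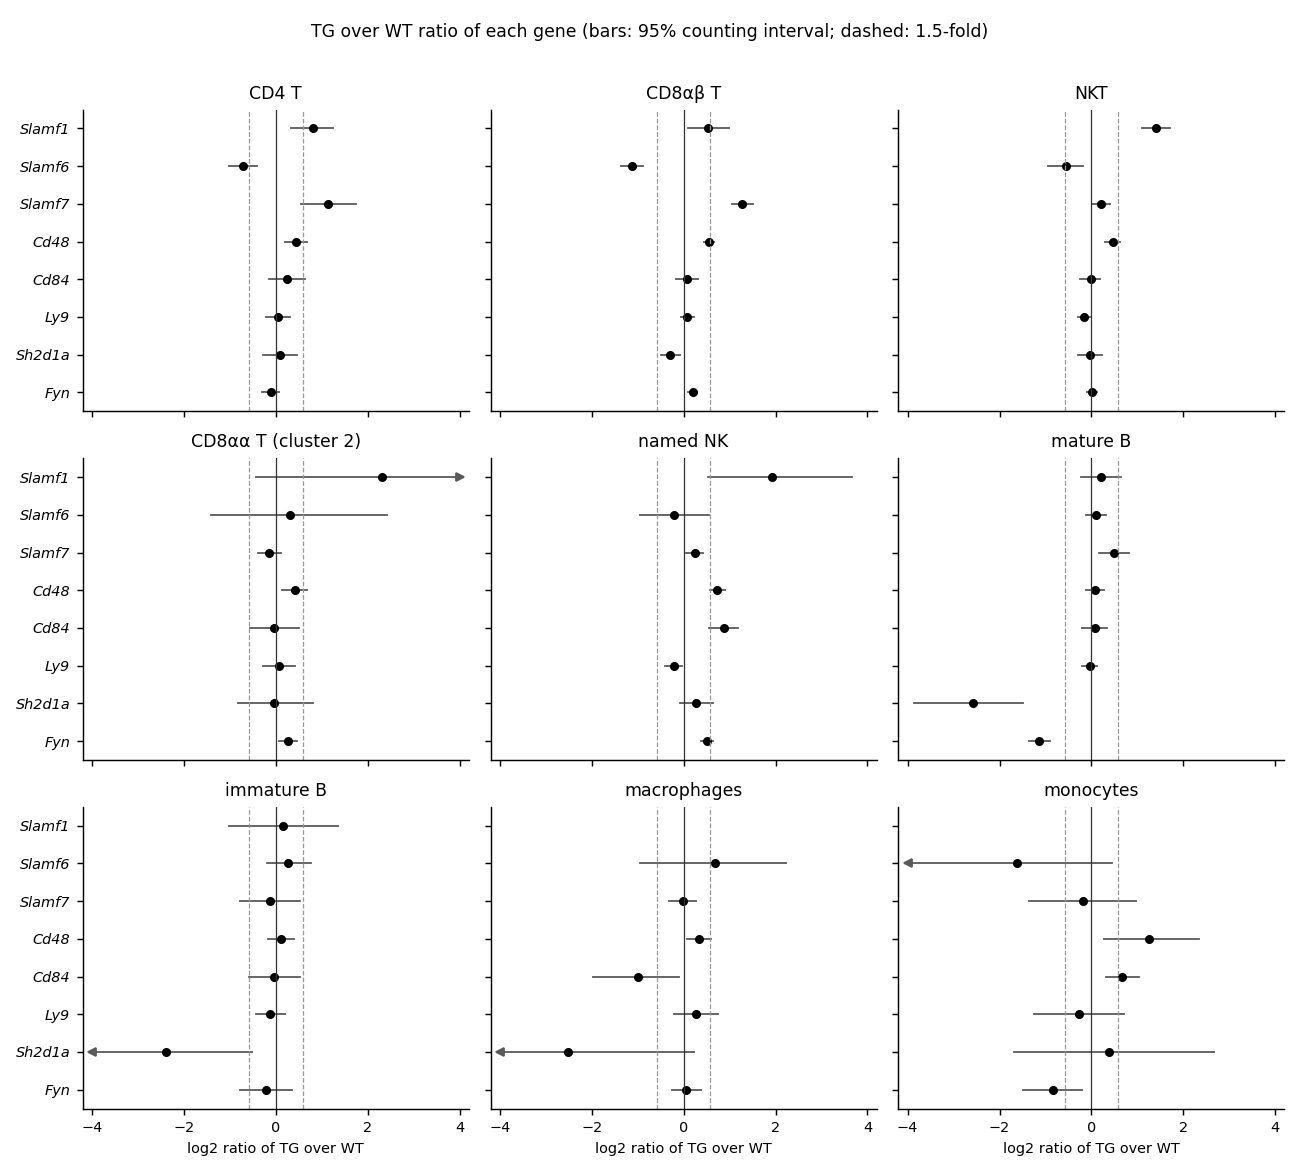
Log2 ratio of TG over WT (horizontal axes) of each gene in the 9 cell types with at least 100 cells in both genotypes, with 95% counting intervals as bars, arrows where an interval runs past the axis and dashed lines at 1.5-fold. Genes with under 10 UMIs are left out. Slamf6 lies to the left of 0 and Slamf7 and Cd48 to the right in CD4 T and CD8αβ T cells, while Ly9 lies near 0 in the lymphocytes.

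Cd48, the ligand of CD244 and CD2, was found in nearly all lymphocyte types and was higher in TG in many of them. Cells named NK had 480 CPM in TG and 289 in WT (0.73, 0.57 to 0.89), CD8αβ T cells 401 and 273 CPM (0.56, 0.44 to 0.67) and cluster 2 355 and 267 CPM (0.41, 0.14 to 0.69). NKT cells had 230.0 and 168 CPM (0.46, 0.29 to 0.62). In WT the highest level was in γδ T cells, at 465 CPM, followed by cells named NK and CD8αβ T cells, which did not differ from each other beyond counting error. Mature B cells had 121 and 115 CPM (0.08, -0.12 to 0.28).

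By cluster the difference in Cd48 was uneven. Of the CD8αβ T clusters, cluster 12 had 677 CPM in TG and 419 in WT (0.69, 0.37 to 1.03), cluster 7 had 522 and 449 CPM (0.22, 0.06 to 0.38), and cluster 4 was lower in TG, at 91.4 and 130 CPM (-0.50, -0.95 to -0.07). Cd48 in CD8αβ T cells was 0.30 with equal weight per cluster. The CD4 T level of 275 and 201 CPM (0.45) turned to -0.08 with equal weight per cluster. Cluster 21 had 241 CPM in TG and 332 in WT, and cluster 6, with its larger share of the WT cells, had 103 and 101 CPM. The part of each cluster in this change was not tested. Of 22 clusters, the interval of Cd48 lay above 0 in 9, below 0 in 1 and included 0 in 12.

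Ly9, a self-binding receptor of lymphocytes that restrains innate-like T cells, was close to even between genotypes. It was highest in NKT cells, at 315.5 CPM in TG and 353 in WT (-0.16, -0.30 to -0.03), and the step to the next cell type, cells named NK at 224 and 260 CPM, did not include 0 in either genotype. Next to them in TG, CD8αβ T cells with 217 CPM, CD4 T cells with 206 CPM, cluster 2 with 187 CPM, pDC with 182 CPM and mature B cells with 176.5 CPM formed a run of neighbors whose intervals all included 0. Ly9 was called in none of the 9 main cell types. Of 22 clusters, the interval lay below 0 in 3, above 0 in none and included 0 in 19.

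Cd84, a self-binding receptor of lymphocytes, platelets and myeloid cells, was highest in cells named monocytes. Cells named monocytes had 301 CPM in TG and 189 in WT (0.67, 0.31 to 1.04), and the 45 TG basophils had 261 CPM. In WT the γδ T cells came next, at 145 CPM, and the interval of that step included 0 (0.39, -0.06 to 0.83). In those monocytes 2 of the 8 genes were higher in TG (Cd48 and Cd84) and 2 lower (Slamf6 and Fyn), beside 33.8% of all genes, and 7 of the 8 had enough counts. Cd48 there rested on 33 and 12 UMIs and Slamf6 on 3 and 8. Fyn was at 60.2 CPM in TG and 107 in WT (-0.83, -1.48 to -0.20). The T cell markers in cells named monocytes summed to 610.2 CPM in TG and 945 in WT, the NK cell markers to 100.3 and 157 CPM and the NKT cell markers to 25.1 and 103 CPM, and their part in the lower Fyn was not tested. The neutrophil markers there summed to 52052 and 32140 CPM and the plasma cell markers to 605.2 and 174 CPM. Their part in the higher Cd84 was not tested.

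In macrophages Cd84 was lower in TG, at 21.2 CPM against 42.2 CPM (-0.99, -1.98 to -0.11). Of the 59 WT UMIs, 27 came from cluster 27, which held 23 WT cells and no comparable TG cells, and in cluster 15 the levels were 29.4 and 41.2 CPM (-0.49, -1.56 to 0.51). The platelet marker Pf4 was at 0 in TG and 205 CPM in WT macrophages, and its part in this difference was not tested. Called genes in macrophages were Slamf6 upward and Cd84 and Sh2d1a downward in TG, beside 30.5% of all genes, with Sh2d1a on 1 and 13 UMIs. In the larger T and B cell types the intervals of Cd84 included 0, with log2 ratios of -0.02 in NKT cells, 0.08 in CD8αβ T cells, 0.25 in CD4 T cells and 0.07 in mature B cells. Of 21 clusters, its interval lay above 0 in 2 and included 0 in 19.

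Among cells named NK, 3 of the 8 genes were higher in TG (Slamf1, Cd48 and Cd84) and none was lower, beside 24.6% of all genes, and the median log2 ratio was 0.38 for the 8 genes and -0.05 for all genes. These ratios have to be read beside the T cell markers. In cluster 8, Cd3e was at 133 CPM in TG and 67.5 in WT and Ncr1 at 883 and 988 CPM. In cluster 3, Cd3e was at 1608 and 122 CPM and Ncr1 at 506 and 961 CPM. Cluster 11, with 343 TG cells and 22 WT cells, had 1401 and 130 CPM of Cd3e. The part of these T cell transcripts in the differences of clusters 3 and 11 was not tested.

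In cluster 8 a difference in Cd84 was not detectable at this depth, at 113 and 109 CPM (0.06, -0.44 to 0.55), whereas cluster 3 had 157 and 48.0 CPM (1.71, 1.19 to 2.26). Cd48 was higher in TG in both, at 0.35 (0.07 to 0.63) in cluster 8 and 0.32 (0.06 to 0.58) in cluster 3. Slamf7 was higher in TG in cluster 8, at 225 and 142 CPM (0.66, 0.28 to 1.05), and not in cluster 3, at 332 and 329 CPM. Slamf1 had 1 UMI in TG and none in WT in cluster 8. Of the 7 genes with enough counts in cluster 8, Slamf7 was called higher and Slamf6 lower in TG, beside 26.9% of all genes, Slamf6 on 3 and 15 UMIs.

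**Figure D5:**
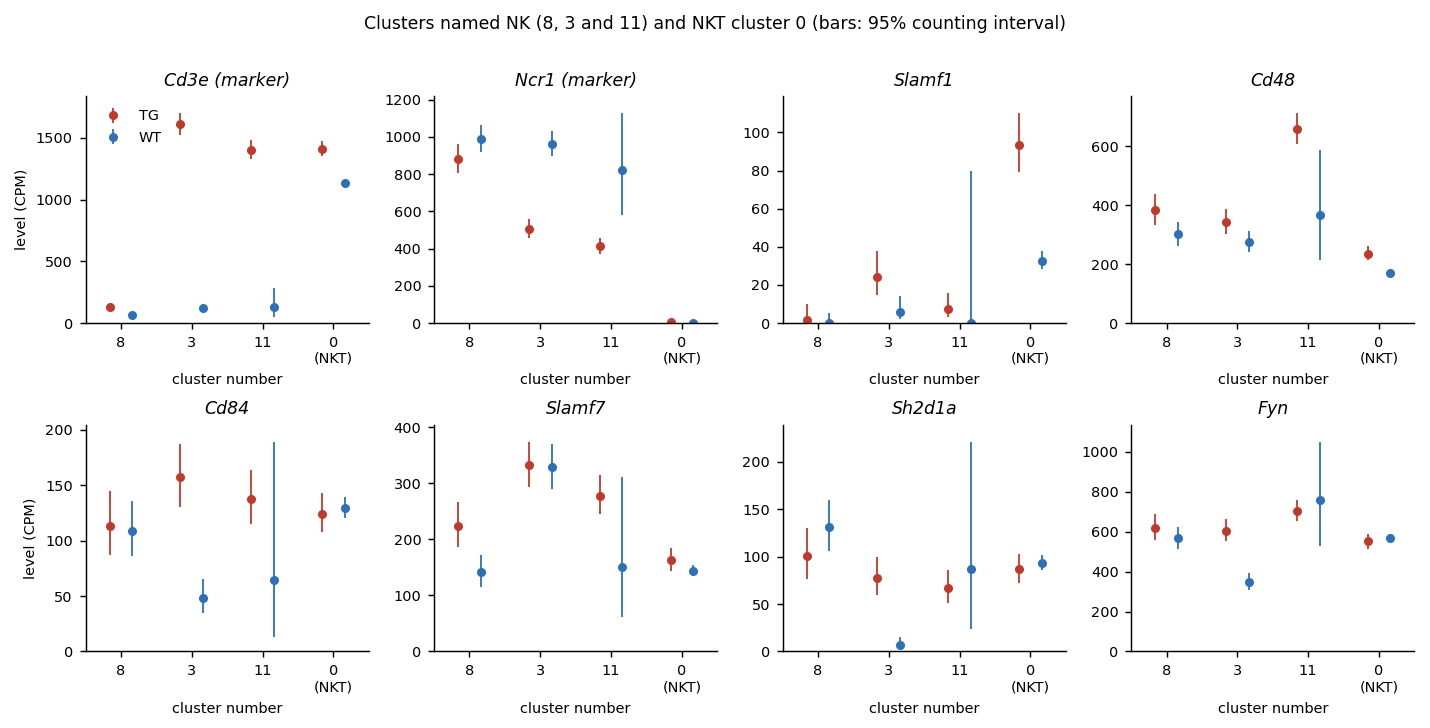
Level in CPM (vertical axes, from 0) of the markers Cd3e and Ncr1 and of 6 of the 8 genes in clusters 8, 3 and 11 of the cells named NK and in NKT cluster 0, in TG (red) and WT (blue), with 95% counting intervals. In TG, clusters 3 and 11 carried Cd3e at 1608 and 1401 CPM, as NKT cluster 0 did at 1410 CPM, while cluster 8 carried 133 CPM.

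Sh2d1a, the gene of SAP, was a T and NK cell transcript. CD4 T cells had 104 CPM in TG and 97.1 in WT (0.10, -0.28 to 0.47), NKT cells 87.2 and 88.9 CPM (-0.03, -0.29 to 0.23) and CD8αβ T cells 80.5 and 98.2 CPM (-0.29, -0.50 to -0.07). In both genotypes these 3 types were neighbors whose intervals included 0. Cluster 2 stood lower, at 35.5 and 36.4 CPM, and WT γδ T cells had 35.8 CPM. Sh2d1a thus stayed within 1.5-fold in the T cell types in which Slamf6 or Slamf1 was called.

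Single clusters departed from this in both directions. Sh2d1a was lower in TG in CD8αβ cluster 12, at 62.6 and 164 CPM (-1.39, -2.05 to -0.72), in cluster 7 (-0.48, -0.83 to -0.13) and in the Foxp3 cluster 21, at 154 and 264 CPM (-0.78, -1.47 to -0.11). It was higher in TG in cluster 4, at 94.2 and 58.2 CPM (0.70, 0.18 to 1.22). Slamf6 was lower in TG in each of these 4 clusters. The largest ratio was that of cluster 3 among cells named NK, with 61 UMIs in TG and 6 in WT, or 77.3 and 7.20 CPM (3.43, 2.22 to 4.93), beside the Cd3e levels above. In cluster 8 the levels were 101 and 131 CPM (-0.38, -0.88 to 0.11).

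B cells held little Sh2d1a. Mature B cells had 2.38 CPM in TG and 14.2 in WT (-2.58, -3.86 to -1.49), on 8 and 51 UMIs. A Sh2d1a UMI was found in 0.749% of TG and 2.61% of WT mature B cells, at median depths of 2923 and 2044 UMIs. The 5 T cell markers summed to 441 CPM in TG and 1009 in WT mature B cells. Cells with at least 2 UMIs each of B and T lineage genes made up 23.4% of TG and 19.4% of WT mature B cells, and among them Sh2d1a was at 4.45 and 42.8 CPM. The remaining mature B cells had 1.63 and 2.73 CPM on 4 and 7 UMIs, a log2 ratio of -0.75, and the intervals of these levels, 0.443 to 4.16 and 1.10 to 5.62 CPM, overlapped. By cluster, Sh2d1a was at 1.28 and 3.88 CPM in cluster 1 (-1.61, -3.71 to 0.15) and at 22.1 and 54.9 CPM in cluster 17 (-1.31, -3.26 to 0.15), so that both intervals included 0. Cluster 17 held 29 of 1068 TG and 155 of 1494 WT mature B cells. In immature B cells Sh2d1a was the called gene, lower in TG, beside 23.6% of all genes, on 3 and 13 UMIs. Without the cells that held both lineages 1 UMI was left in each genotype, and the ratio was 0.10.

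Fyn, the SRC family kinase that SAP recruits, was highest in pDC, at 887 CPM in TG and 1009 in WT (-0.19, -0.39 to 0.02). Cluster 2 had 648.5 and 540.0 CPM (0.26, 0.07 to 0.46), NKT cells 547 and 540.1 CPM (0.02, -0.09 to 0.12), CD8αβ T cells 510.1 and 445 CPM (0.20, 0.10 to 0.29) and CD4 T cells 393 and 425 CPM (-0.11, -0.30 to 0.07). The pDC, which had 7.13 and 3.81 CPM of Sh2d1a on 2 and 4 UMIs, thus carried the kinase with hardly a transcript of the adaptor. Cells named NK had 648.5 and 460 CPM of Fyn (0.50, 0.37 to 0.63), with 619 and 568 CPM in cluster 8 (0.13, -0.08 to 0.33) and 604 and 349 CPM in cluster 3 (0.79, 0.58 to 1.01). Cluster 11, with 343 TG and 22 WT cells, had 704 CPM in TG and 756 in WT, and its interval included 0.

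In mature B cells Fyn was lower in TG, at 64.3 and 141 CPM (-1.14, -1.37 to -0.90). Fyn and Sh2d1a were the called genes in mature B cells, both lower in TG, beside 17.1% of all genes. Without the cells that held both lineages the ratio of Fyn was -0.79, at 52.4 and 90.5 CPM, and in cluster 1 it was -0.75 (-1.04 to -0.46), at 53.3 and 89.7 CPM. Lck, the T cell kinase of the same family, was also lower in TG mature B cells, at 74.7 and 145 CPM (-0.95, -1.18 to -0.73). The part of T cell transcripts in the remaining difference was not tested. Of 22 clusters, the interval of Fyn lay above 0 in 5, below 0 in 2 and included 0 in 15.

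The order of cell types was seldom resolved step by step. For each gene the 13 TG cell types gave 12 pairs of neighbors and the 12 WT cell types 11 pairs. For Slamf1, 10 pairs in TG and 10 in WT had an interval that included 0. Slamf6 had 11 and 9 such pairs, Slamf7 8 and 7, Cd48 6 and 7, Cd84 8 and 10, Ly9 9 and 9, Sh2d1a 10 and 9 and Fyn 7 and 6.

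Other genes of the same pathway were taken from a list of 25, of which 24 were in the table. Their counts below use the same call rule as for the 8 genes, so that genes whose interval included 0 are among them, such as Cd244a in CD4 T cells on 6 and 5 UMIs (-0.51 to 3.52). Cd244a, the receptor for CD48, was higher in TG in CD8αβ T cells, at 34.7 and 16.0 CPM (1.12, 0.66 to 1.60), and in NKT cells, at 20.96 and 4.39 CPM (2.25, 1.51 to 3.01). Among cells named NK it was lower in TG, at 179 and 293 CPM (-0.71, -0.91 to -0.52), with 212 and 242.5 CPM in cluster 8 and 170 and 337 CPM in cluster 3. Cluster 2 had 248 and 287 CPM. Cd2, the other receptor for CD48 in mice, was at 471 and 332 CPM in CD4 T cells (0.50, 0.32 to 0.69) and at 302 and 189 CPM in cluster 2 (0.68, 0.36 to 1.00). Cells with a Trdc UMI made up 4.88% of TG and 42.3% of WT cells of cluster 2. WT γδ T cells held 115 CPM of Cd2. The part of the Trdc-positive cells in the Cd2 ratio of cluster 2 was not tested. Slamf8, a receptor of phagocytes, was at 53.9 and 57.9 CPM in macrophages. Slamf9 was highest in pDC, at 289 and 303 CPM (-0.07, -0.44 to 0.29). In macrophages Slamf9 was past 1.5-fold lower in TG, at 11.4 and 32.9 CPM on 7 and 46 UMIs (-1.52, -2.92 to -0.37). The pDC markers in macrophages summed to 1235 and 1321 CPM, and their part in the Slamf9 level there was not tested.

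Sh2d1b1, which encodes the adaptor EAT-2, was at 16.7 and 43.0 CPM in cells named NK (-1.37, -1.98 to -0.78), with 12.7 and 55.2 CPM in cluster 3 (-2.12, -3.27 to -1.12) and, on 1 and 3 UMIs, -5.91 (-11.62 to -2.27) in cluster 11. In cluster 8 its levels were 47.8 and 27.6 CPM, and the interval included 0 (0.79, -0.09 to 1.70). In macrophages it was at 42.5 and 11.4 CPM (1.89, 0.94 to 2.89). The NK cell markers there summed to 211 CPM in TG and 47.9 in WT, and the T cell markers to 711 and 463 CPM, and their part in this difference was not tested. Fgr is a SRC family kinase of myeloid cells. In CD4 T cells 7 of 21 listed genes with enough counts were higher in TG (among them Cd244a, Lyn, Fgr, Inpp5d, Dok1 and Dok2) and 2 lower (Prkcq and Zbtb16), beside 29.6% of all genes called. In CD8αβ T cells 5 of 22 were higher (among them Cd244a, Sh2d1b1 and Dok2) and 2 lower (Zbtb16 and Egr2), beside 22.4%. Dok2, an adaptor that damps T cell signals, was at 157 and 78.9 CPM in CD8αβ T cells (0.99, 0.78 to 1.21) and at 153 and 77.6 CPM in CD4 T cells (0.98, 0.63 to 1.33).

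In NKT cells 5 of 21 were higher (among them Cd244a, Lyn and Inpp5d) and 2 lower (Ptpn6 and Zbtb16), beside 21.5% of all genes called. Zbtb16 encodes PLZF, the lineage factor of NKT cells whose expression depends on SLAM and SAP signals in the thymus, and it was at 43.1 CPM in TG and 107 in WT NKT cells (-1.31, -1.68 to -0.97). Ptpn6, the phosphatase SHP-1, was at 149 and 240.3 CPM (-0.69, -0.88 to -0.50). In the same cells named NKT, Cd4 was at 633.8 CPM in TG and 162 in WT and the NK cell markers summed to 651 and 987 CPM. CD4 T cells held 1.18 and 6.16 CPM of Zbtb16. The part of these marker differences in those of Zbtb16 and Ptpn6 was not tested. Cluster 2 had 2 of 21 higher (among them Cd2) and 1 lower (Sh2d1b1), beside 26.2%. Cells named NK had 2 of 22 higher (among them Zbtb16) and 4 lower (Cd244a, Sh2d1b1, Vav1 and Nfkb1), beside 24.6%. S100a8, a neutrophil transcript, was at 93.5 to 175 CPM in TG and 25.4 to 56.0 CPM in WT T, NK and B cell types, and its part in the higher Fgr of TG CD4 T cells was not tested.

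In immature B cells 4 of 21 listed genes were higher in TG (among them Slamf9 and Prkcq) and 2 lower (Nfkb1 and Egr2), beside 23.6% of all genes called, where the intervals of Slamf9 (-0.11 to 1.55) and Prkcq (-0.51 to 2.62) included 0. In mature B cells 1 of 22 was higher (Cd244a) and 4 lower (Slamf9, Lck, Prkcq and Zbtb16), beside 17.1%. Macrophages had 5 of 24 higher (among them Sh2d1b1, Fgr and Dok2) and 2 lower (Slamf9 and Prkcq), beside 30.5%, and monocytes 1 of 20 higher (Rasa1) and 4 lower (Lck, Vav1, Zbtb16 and Egr2), beside 33.8%. The T cell markers summed to 441 CPM in TG and 1009 in WT mature B cells and to 610 and 945 CPM in cells named monocytes. Their part in the genes lower in TG in these 2 types was not tested. The median log2 ratio of the 8 genes ranged from -0.19 in monocytes to 0.38 in cells named NK, and that of all genes from -0.08 to 0.10.

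The pattern of each gene over cell types was set beside that of 7947 genes, as Pearson's r of log2 (CPM + 1) over 21 profiles of a cell type in a genotype. The profiles share their library and its depth, and the values are descriptions. Pik3ip1, an inhibitor of PI3 kinase in resting T cells, was most like Slamf6 (r 0.93), followed by Gm8369 (0.89). Most like Slamf7 were Mcrip1 (0.88), Icam1 (0.88), an adhesion molecule, and Lrrk1 (0.86). Sh2d1a was most like Ms4a4b (0.96), Cd247 (0.95), the zeta chain of the T cell receptor complex, and Lef1 (0.93). Slamf1 was most like Fam213a (0.84), Dgka (0.82) and Tnfrsf4 (0.81), which encodes the costimulatory receptor OX40. Genes most like Fyn included Gbp8 (0.92) and Tspyl4 (0.91).

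The most like genes were Nup210 (0.97), Polr3k (0.96) and Ywhaq (0.95) for Cd48, Mark2 (0.87), Zcchc8 (0.87) and Wdtc1 (0.85) for Cd84 and Ddx24, Eftud2 and Zfp148 (0.95 each) for Ly9. Among the 8 genes themselves, r was highest for Cd48 and Ly9 (0.76) and for Sh2d1a and Fyn (0.72), was 0.07 for Slamf6 and Slamf7 and was lowest for Cd48 and Cd84 (-0.28).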

How the data were processed

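CD45+ liver cells were captured singly with BD Rhapsody microwells. Per the file headers, the authors made UMI counts per gene and cell with the BD WTA pipeline version 1.9, aligning reads to mm10 with STAR, and deposited them as raw counts for both libraries and in a filtered table of 11929 cells. Cell types and cluster numbers are the authors' annotation, made after joining both libraries in Seurat 4.0.1. The cell filter is not given in the sources used here. Counts of the 8 genes were the same in the filtered table and in the library files for every cell.

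Counts were summed per cell type or cluster and genotype and divided by the total (CPM), with exact Poisson intervals. Ratios have exact conditional binomial intervals, and shares of cells have Clopper-Pearson intervals, all at 95%. PCR reads were collapsed to UMIs, and intervals cover counting error only. Types or clusters with at least 20 cells in a genotype are shown there, and calls were made in the 9 types with at least 100 cells in both and in clusters 0, 7, 8 and 12. The named genes are the 8 genes, listed pathway genes past 1.5-fold or coding for a receptor or adaptor, and, per gene, the 3 with the highest r among genes with at least 500 UMIs over profiles of at least 50 cells. Some genes that this rule names are not reported here. A planned comparison of protein sequences was not made here. The genes and lists were chosen with earlier results of these data known.

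Alternatives were TMM scaling (edgeR 4.0.16 in R 4.3.3), equal weight per cell or per cluster, totals that leave out ribosomal and mitochondrial genes, cells thinned to 1000 UMIs, cells without Scrublet doublets (scanpy 1.11.5), without cells with B and T lineage UMIs or without Trdc-positive cells, library file counts, a fold of 2, no minimum count and Spearman's rho. Python 3.11.15, numpy 2.4.6, scipy 1.17.1 and pandas 2.3.3 were used. The ratio, its interval and the 1.5-fold rule were tested on simulated counts of summed CD8αβ T cells. These counts were drawn from the Poisson model that the interval assumes, and the summing over cells was not tested. Gene positions are from GENCODE vM21.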

Additional observations from a re-analysis of the deposited data

Results flagged for a closer look

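Cd84 moved in opposite directions in the annotated cell types. By cluster, its interval lay above 0 in 2 of 21 clusters, below 0 in none and included 0 in 19. The log2 ratio of TG over WT was 0.67 in cells named monocytes and 0.87 in cells named NK, but -0.99 in macrophages. The differences between these ratios were not tested, since each genotype is 1 library. The value in cells named NK stands beside 1158 CPM of Cd3e in TG and 97.8 CPM in WT. That in cells named monocytes stands beside neutrophil marker sums of 52052 CPM in TG and 32140 CPM in WT. In macrophages 1 WT cluster, which had no comparable TG cells, held 27 of the 59 WT Cd84 UMIs. The platelet marker Pf4 was at 0 in TG and 205 CPM in WT macrophages. The part of these in the ratios was not tested.

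Sh2d1b2, which encodes a second adaptor of the EAT-2 kind in mice, is not among the genes of the filtered table. In the library files 8 UMIs of it were found in the annotated cells, all in cells named NK, with 5 in TG and 3 in WT, and 0 in the other annotated cells.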

How the results depend on the processing

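Over 9 settings, 690 values of 85 ratios were recomputed, of which 642 moved by less than their interval, 44 by more and 4 turned in direction. A turn was counted only for ratios whose main interval did not include 0. Any change of sign in the other ratios is among the 642 or the 44 and was not counted as a turn. Thinning to 1000 UMIs moved 21 and turned 2 of 79 ratios, and equal weight per cluster moved 16 and turned 1 of 47. Of 85 ratios each, leaving out cells of both lineages moved 3 and turned 1, equal weight per cell moved 3 and removal of Scrublet doublets moved 1. TMM scaling and totals without ribosomal and mitochondrial genes left the 85 ratios within their intervals, as removal of Trdc-positive cells did for the 54 ratios of T and NK cells. TMM moved all genes of a cell type by -0.09 to 0.07. The library file counts could not move their 85 ratios, because the counts were the same for every cell. These 85 values are among the 642 and say nothing on dependence. The ratios that turned were Cd48 in CD4 T cells with equal weight per cluster (-0.08), Ly9 in NKT cells after thinning (0.01) and Sh2d1a in immature B cells without the cells of both lineages (0.10) and after thinning (0.07). Both values of Sh2d1a rest on too few counts to give a direction. Each genotype had 1 UMI without the cells of both lineages and 1 cell with a UMI after thinning. The median of the 8 genes in NKT cells was 0.32 with equal weight per cluster, against -0.00. At a fold of 2, CD4 T cells had 1 called gene and not 3, macrophages 1 and not 3, cells named NK 1 and not 3 and monocytes 2 and not 4, beside 11.7%, 12.9%, 10.8% and 14.2% of all genes. In the clusters, for which this setting was chosen after seeing the data, cluster 7 had 1 and not 2, cluster 8 had 1 and not 2 and cluster 12 had 2 and not 4, beside 10.7%, 9.84% and 16.3%, and Slamf7 was no longer called in any of these 3. The cause was not tested. Of the 3 genes most like each gene, Spearman's rho kept 2 for Slamf6 and Sh2d1a, 1 for Slamf1, Slamf7, Cd48, Cd84 and Fyn and 0 for Ly9. Scrublet called 0.904% of TG and 3.30% of WT cells doublets, against 5% expected. Slamf1 in macrophages had no TG counts and no ratio, and the thinned median there could not be computed. No paired analysis was possible because each genotype is 1 library.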

Other observations

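The 250 bases before the RefSeq start of Slamf6 and Slamf7 (GRCm38.p6) were searched on both strands for the letters CTTTGA (TCF/LEF), GGTGTGA (T-box), TGTGGT (RUNX) and GGAAGT (ETS). The Slamf6 window was chr1:171917212-171917461 and that of Slamf7 chr1:171649000-171649249. The Slamf7 window lies within the annotated span of its gene, downstream of the farthest annotated start, and is therefore not upstream of every transcript. The Slamf6 window ends before the GENCODE start of its gene at 171917515. Bases checked after the RefSeq start were in 0 of 7 annotated transcripts of Slamf6 and in 3 of 5 of Slamf7, so the Slamf6 start was not matched. The windows held 0 matches, while 13.8%, 3.3%, 14.0% and 19.7% of 32851 promoters of the same length held each of them. No match says only that these letters are not in this window.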
